A study of Homo sapiens with 6 samples.

Results

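The proteasome subunit genes are 34 genes that encode the constitutive core particle, the immunoproteasome catalytic subunits and the regulatory particle of the proteasome. They were chosen by name, not by any measured value, though with earlier results of these data known. All 34 were found among the 62703 gene identifiers of the deposited count files. All 34 passed the filter on low counts and were among the 16929 genes tested. RNA came from SEM, an established B-cell precursor acute lymphoblastic leukaemia line with a KMT2A::AFF1 fusion. In the knock-down group (KD, 3 libraries) the cells received a pair of Dicer-substrate siRNAs placed on the back-splice junction of AK_8_2, a circular RNA of the fusion gene, and in the negative control group (NC, 3 libraries) a commercial duplex without a target. Cells of both groups were transfected with a lipid reagent in reverse and again in forward mode 24 h later, and both groups therefore share the fusion, the reagent and the exposure to a duplex RNA. Total RNA was sequenced, with depletion of globin transcripts.

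The proteasome degrades proteins that carry ubiquitin chains. Its core particle is a barrel of stacked rings: PSMA subunits form the outer alpha rings that gate the entrance, and PSMB subunits form the inner beta rings, in which PSMB5, PSMB6 and PSMB7 carry the proteolytic sites. PSMB8, PSMB9 and PSMB10 replace these in the immunoproteasome, which is abundant in lymphoid cells, is induced by interferon and produces peptides for antigen presentation. PSMC ATPases unfold the substrate at the base of the regulatory particle, and PSMD subunits recognise the chain, scaffold the base and form the lid. Leukaemia cells of the B lineage are sensitive to drugs that block PSMB5.

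Gene counts totalled 14750579 to 26694160 per library. In the replicate 1 libraries of both groups 50.03% (KD) and 48.6% (NC) of records were assigned to no counted feature. In the other 4 libraries 11.3% to 17.3% were. The strand setting is not known, so such records can also lie within annotated genes. In KD replicate 3, 31.5% of records aligned to several places, against at most 17.3% elsewhere. The summed level of 9 B-cell precursor markers was 1464 to 2032 CPM (a gene's reads relative to library size) in KD and 1517 to 2045 in NC, while the 5 erythroid markers summed to at most 2.51 CPM the 6 T and NK cell markers to at most 15.5, the 6 myeloid markers to at most 55.0 and the 3 platelet markers to at most 5.18. Counts of KMT2A, whose exons AK_8_2 shares with linear transcripts, were 2680, 4679 and 2908 in KD replicates 1 to 3 and 2457, 3227 and 4985 in NC; they do not measure the circle, so the extent of silencing is not known here. CPM values use library sizes scaled by the trimmed mean of M-values (TMM).

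No proteasome gene differed between KD and NC by the test used. With group as the only term, the quasi-likelihood test of edgeR called 0 of 34 members at an adjusted p under 0.05, and it called 0% of all genes tested; 0 of 34 had an unadjusted p under 0.05, against 0.307% of all genes. With a term for the replicate number added (the paired fit), again 0 of 34 were called, against 0.171% of all genes, and 2 of 34, PSMB4 and PSMD7, had an unadjusted p under 0.05, against 4.97% of all genes, so that share was near the background. DESeq2 and limma-voom also called 0 members, against 1 (DESeq2) and 0 (limma-voom) of the 16929 genes tested. They gave no member an unadjusted p under 0.05. The paired log2 fold changes (KD over NC) ran from -0.16 for PSMA6 to 0.14 for PSMA2, with a median of 0.01 beside -0.01 over all genes tested. They were above 0 in 21 of 34 members and in 48.0% of all genes.

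The paired 95% interval lay inside a 1.5-fold change in either direction for 34 of 34 members, against 66.6% of all genes tested. Without the block it did so for 31 of 34, against 50.7%, the exceptions being PSMA1, PSMA2 and PSMB10. The widest paired interval, -0.29 to 0.57, belonged to PSMA2, the member with the fewest reads. Without the block the width did not follow the count alone. PSMA1 then had an interval of -0.71 to 0.62, and PSMA6, with fewer reads, one of -0.58 to 0.26. The paired intervals leave out the spread shared by libraries of one number.

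**Figure D1:**
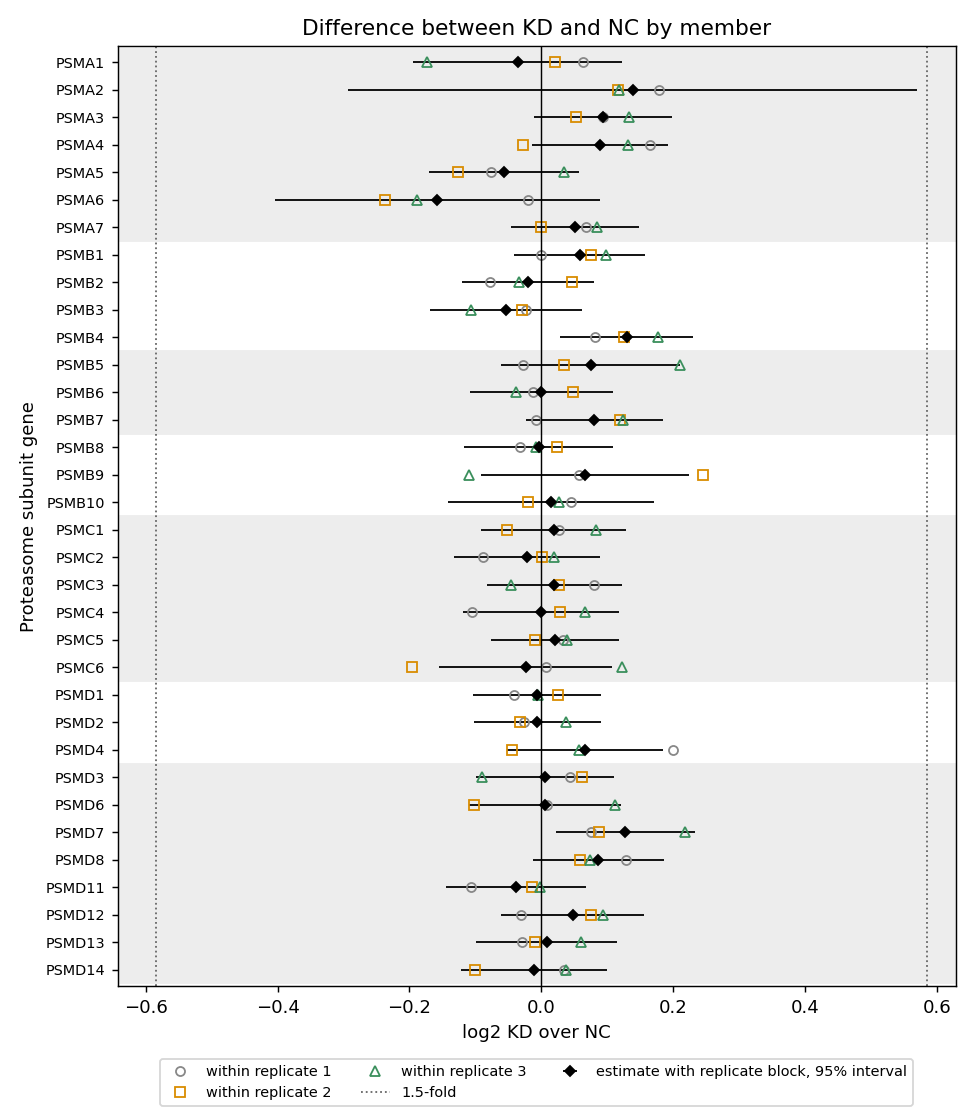
Log2 differences of KD over NC for the 34 proteasome subunit genes (horizontal axis, log2 scale; 1 gene per row, shaded by role). Diamonds and bars are paired estimates with 95% intervals, open symbols the differences within each replicate number and dotted lines a 1.5-fold change; all 34 intervals lie between the dotted lines, and the members with the smallest unadjusted p, PSMB4 and PSMD7, lie at 0.13.

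In the core particle, PSMB4 had the smallest unadjusted p. This gene for a structural beta subunit (ENSG00000159377.11, chromosome 1, 151399534 to 151401944, plus strand, GRCh38) had 141, 186 and 185 CPM in KD replicates 1 to 3 and 133, 170 and 163 in NC. Each KD library lay above the NC library of its number, while the groups overlapped because both replicate 1 libraries were low. The paired log2 fold change was 0.13 (SE 0.05), with an unadjusted p of 0.0144 and an edgeR quasi-likelihood adjusted p of 0.833. PSMA3, an alpha ring subunit, had 115, 127 and 121 CPM in KD and 107, 122 and 110 in NC, a paired change of 0.09 (interval -0.01 to 0.20). PSMA4, the alpha ring member with the most reads, had 261, 241 and 249 CPM in KD and 233, 245 and 227 in NC, and its paired change was also 0.09; KD was the higher library in replicates 1 and 3 and the lower one in replicate 2. PSMA7, another alpha subunit, had 184, 245 and 246 CPM in KD and 175, 245 and 232 in NC, with values in replicate 2 that could not be told apart.

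Of the 17 core genes 7 had paired estimates below 0. PSMA6 (alpha ring) had 8.61, 9.49 and 11.2 CPM in KD and 8.73, 11.2 and 12.8 in NC, a paired change of -0.16 (interval -0.40 to 0.09) at counts that give a wide interval. PSMA5, also of the alpha ring, had 78.6, 85.6 and 81.9 CPM in KD and 82.9, 93.5 and 80.0 in NC, a change of -0.06. PSMB3, a structural beta subunit, had 54.6, 82.7 and 75.1 CPM in KD and 55.5, 84.4 and 80.9 in NC, a change of -0.05 with KD the lower library in each number. The other structural beta subunits, PSMB1 and PSMB2, had paired changes of 0.06 and -0.02, and PSMA1 one of -0.04.

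The regulatory particle showed the same narrow range. PSMD7, a scaffold subunit of the lid (ENSG00000103035.11, chromosome 16, 74296775 to 74306288, plus strand), had 133, 164 and 161 CPM in KD and 126, 154 and 139 in NC. KD was higher within each number, most in replicate 3 (log2 differences of 0.07, 0.09 and 0.22). Its paired change was 0.13 (SE 0.05), with an unadjusted p of 0.0199 and an edgeR quasi-likelihood adjusted p of 0.888. PSMD8, another lid subunit, had 139, 179 and 176 CPM in KD and 127, 171 and 167 in NC, a paired change of 0.09 (interval -0.01 to 0.19). PSMD11, a lid subunit, had 84.2, 135 and 125 CPM in KD and 90.6, 137 and 125 in NC, a change of -0.04. PSMD14, the deubiquitinase that removes the chain from the substrate, had 91.4, 105 and 105 CPM in KD and 89.3, 112 and 102 in NC, a change of -0.01 (interval -0.12 to 0.10). The 6 ATPases stayed closest together, with paired changes of 0.02 for PSMC1, PSMC3 and PSMC5, 0.00 for PSMC4 and -0.02 for PSMC2 and PSMC6. PSMC6 had 73.1, 70.3 and 82.1 CPM in KD and 72.7, 80.6 and 75.4 in NC, so that replicates 2 and 3 moved in opposite directions. The ubiquitin receptor PSMD4 stood at 0.07, and the large scaffold subunits PSMD1 and PSMD2 each at -0.01. The remaining lid subunits PSMD3, PSMD6, PSMD12 and PSMD13 had paired changes of 0.01, 0.01, 0.05 and 0.01.

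KD was higher in all 3 numbers for 6 of 34 members (PSMA2, PSMA3, PSMA7, PSMB4, PSMD7 and PSMD8), against 13.0% of all genes tested. It was lower in all 3 for PSMA6, PSMB3 and PSMD11, 3 of 34, against 12.7%. The 3 KD libraries all lay above the 3 NC libraries for 0 of 34 members (1.48% of all genes) and all below them for 0 of 34 (1.82%). The median difference over the members was 0.01, 0.02 and 0.05 within replicates 1, 2 and 3.

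Dividing each count by the summed counts of all 34 members removes whatever the members share within a library and leaves the composition of the complex at the RNA level. On this scale PSMB4 made up 4.23%, 4.26% and 4.36% of member counts in KD replicates 1 to 3 and 4.06%, 3.95% and 4.00% in NC, and the groups did not overlap. PSMD8 made up 4.18%, 4.10% and 4.15% in KD and 3.90%, 3.97% and 4.09% in NC, again without overlap, though by a small margin. These were 2 of 34 members with all KD libraries above NC, against 0.756% of all genes divided in the same way, and 0 of 34 lay all below, against 2.16%. The divisor removes shared variation for the members only, so these shares of all genes are not a like-for-like background. In CPM 0 of 34 members lay all above and 0 of 34 all below. PSMB4 and PSMD8 were singled out after their values were seen. With 3 libraries a group an exact permutation test cannot go below p = 0.10 for either. As ratios of the group means the differences were 0.10 and 0.06 on the log2 scale.

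**Figure D2:**
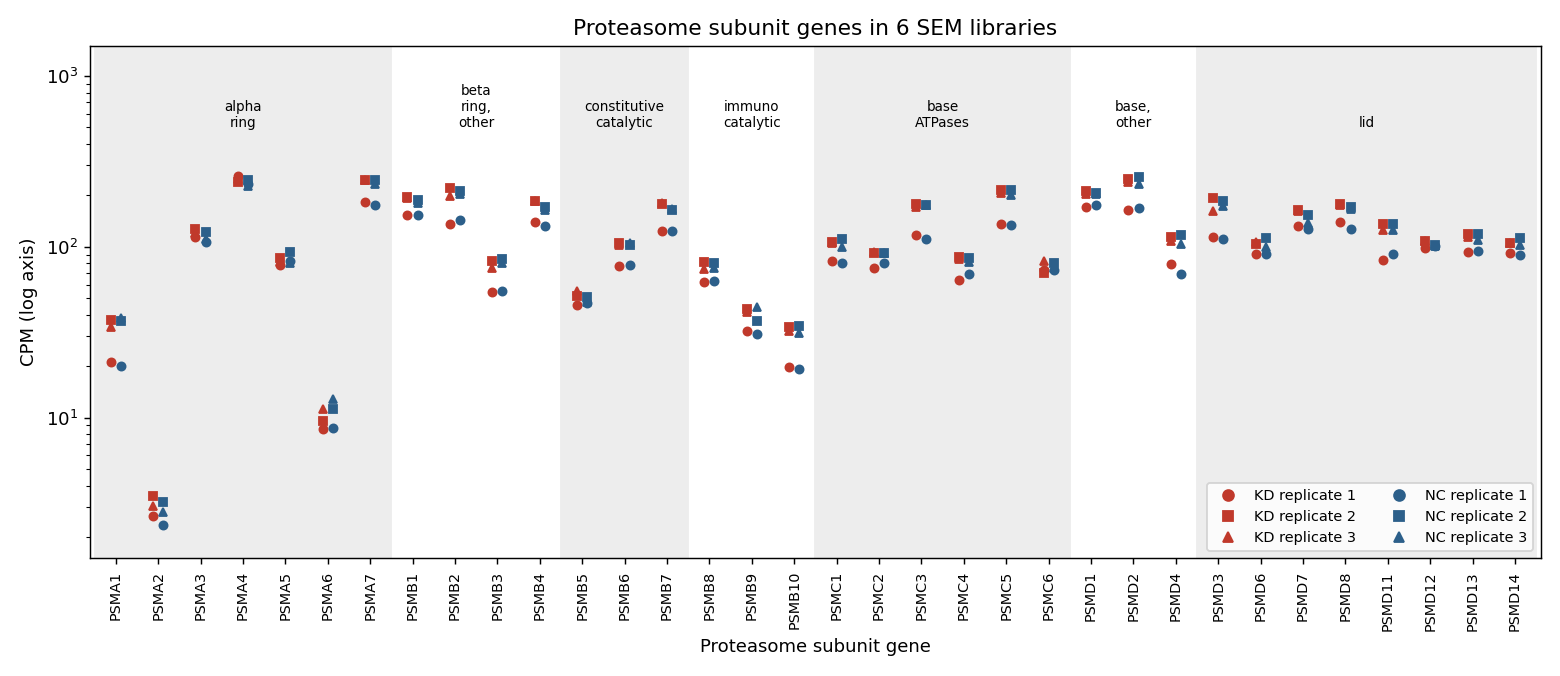
Level of each proteasome subunit gene in CPM (log axis) in the 3 KD and 3 NC libraries, grouped by role. KD and NC libraries of the same number lie close together for most genes, both replicate 1 libraries (circles) lie below the other 4 for 30 of 34, and PSMA2, PSMA6, PSMB10 and PSMA1 have the fewest reads.

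The catalytic subunits are the members that tell constitutive from immunoproteasome. PSMB5, with the chymotrypsin-like site (ENSG00000100804.19, chromosome 14, 23016543 to 23035230, minus strand), had 45.7, 51.8 and 55.1 CPM in KD and 46.6, 50.5 and 47.6 in NC. PSMB6, with the caspase-like site, had 77.7, 106 and 102 CPM in KD and 78.4, 102 and 105 in NC. PSMB7, with the trypsin-like site, had 123, 179 and 181 CPM in KD and 124, 165 and 166 in NC. KD and NC overlapped for each of these, and the paired intervals were -0.06 to 0.21 for PSMB5, -0.11 to 0.11 for PSMB6 and -0.02 to 0.18 for PSMB7. All 3 immunoproteasome subunits were expressed in control cells. PSMB8, which takes the place of PSMB5 (ENSG00000204264.12, chromosome 6, 32840717 to 32844703, minus strand), had 62.0, 81.6 and 74.4 CPM in KD and 63.4, 80.3 and 74.8 in NC. PSMB9, which takes the place of PSMB6 (ENSG00000240065.8, chromosome 6, 32844136 to 32859585, plus strand), had 32.2, 43.4 and 41.3 CPM in KD and 31.0, 36.6 and 44.6 in NC. PSMB10, which takes the place of PSMB7 (ENSG00000205220.12, chromosome 16, 67934502 to 67937087, minus strand), had 19.8, 34 and 32.1 CPM in KD and 19.2, 34.5 and 31.5 in NC. None separated the groups. PSMB9 had the largest difference within a number of all members, 0.25 in replicate 2, but -0.11 in replicate 3 and 0.06 in replicate 1, and its paired interval was -0.09 to 0.22. Those of PSMB8 and PSMB10 were -0.12 to 0.11 and -0.14 to 0.17. PSMB8 and PSMB9 lie on opposite strands and share 139 annotated exon bases, PSMB8 shares 618 with PSMB8-AS1 on the other strand, PSMB9 shares 174 with PSMB8-AS1 on its own, and without a known strand setting reads there cannot be assigned to a strand.

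Ratios of an immunoproteasome subunit to its constitutive counterpart do not depend on library size. The read ratio PSMB8/PSMB5 was 1.36, 1.58 and 1.35 in KD replicates 1 to 3 and 1.36, 1.59 and 1.57 in NC. The ratio PSMB9/PSMB6 was 0.414, 0.410 and 0.405 in KD and 0.395, 0.358 and 0.426 in NC. For PSMB10/PSMB7 it was 0.161, 0.190 and 0.177 in KD and 0.155, 0.210 and 0.190 in NC. The groups overlapped in each. The log2 differences of the means, KD minus NC, were -0.08, 0.07 and -0.06, with two-sided exact permutation p of 0.40, 0.60 and 0.80 over 3 ratios (Benjamini-Hochberg adjusted 0.80 for each); the smallest p this design allows is 0.10. Within replicate 3 PSMB8/PSMB5 was lower in KD by a log2 difference of -0.22, while in replicates 1 and 2 it was -0.00 and -0.01. Per length, the immunoproteasome subunits made up 21.5% to 22.8% of the 6 catalytic transcripts in KD and 21.7% to 23.0% in NC with union exon lengths, and 29.5% to 31.0% and 30.5% to 31.2% with principal transcript lengths. The share therefore depends on the length taken, and under neither did the groups separate.

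**Figure D3:**
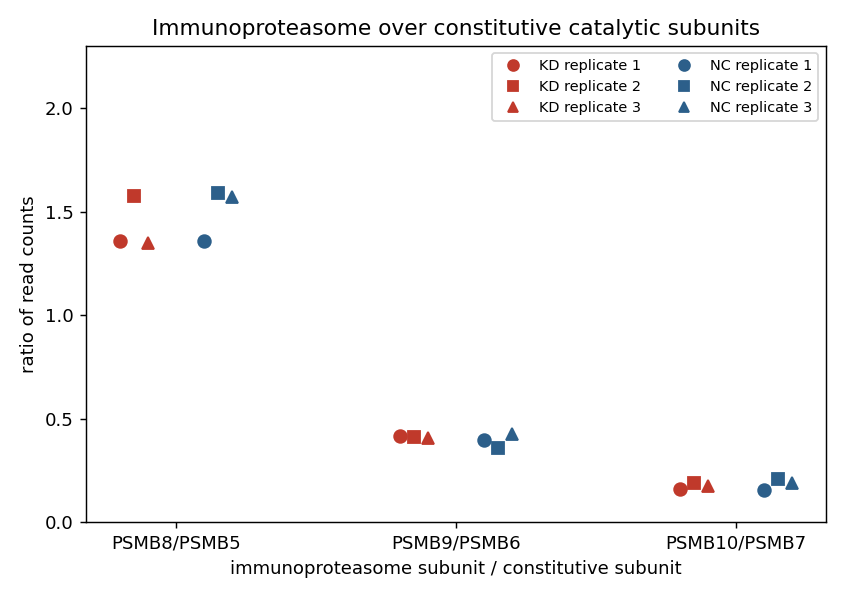
Ratio of read counts of each immunoproteasome catalytic subunit to the constitutive subunit it replaces (vertical axis from 0, no unit), for the 3 KD and 3 NC libraries. The ratios run from 1.35 to 1.59 for PSMB8/PSMB5, 0.358 to 0.426 for PSMB9/PSMB6 and 0.155 to 0.210 for PSMB10/PSMB7, and KD and NC overlap in all 3.

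Promoter sequence was searched for the elements best known in these genes. The antioxidant response element, bound by NFE2L1 and related factors, carries the induction of proteasome genes when the proteasome is blocked, and the interferon-stimulated response element is bound by STAT and IRF factors. RefSeq promoters (GRCh38.p14, 250 bases before to 50 after the start; a gene with several starts has an entry for each, and the windows of PSMA4 come from different ones) were matched for 29 of 34 members; PSMA7, PSMB1, PSMB6, PSMB7 and PSMD4 had no entry. The core TGACNNNGC, on either strand, was present for 8 of 29 members and for 16.1% of the 27305 genes in the table. CCAAT was present for 16 of 29, against 39.7%, and the core of the interferon-stimulated response element (GAAA, 2 free bases, GAAA) for 4 of 29 (PSMA4, PSMB4, PSMB8 and PSMB10), against 4.38%. The matches to TGACNNNGC that lie wholly before the start are shown because they place the element in alpha, beta, ATPase and lid genes alike. Each line runs 5′ to 3′ along the gene's strand, with the 9 matched bases in capitals (those of PSMB9 and PSMC5 match on the opposite strand) and 10 bases on either side.
PSMA4, chr15:78540650-78540678, plus strand: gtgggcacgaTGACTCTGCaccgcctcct
PSMB3, chr17:38752627-38752655, plus strand: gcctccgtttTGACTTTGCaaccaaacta
PSMB9, chr6:32854034-32854062, plus strand: gggcggggctGCCTCGTCActtgtctcgg
PSMC5, chr17:63827654-63827682, plus strand: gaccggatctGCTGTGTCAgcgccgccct
PSMD3, chr17:39980760-39980788, plus strand: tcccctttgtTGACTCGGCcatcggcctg
PSMD12, chr17:67366724-67366752, minus strand: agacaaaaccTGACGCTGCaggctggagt
The matches to the interferon element core that lie wholly before the start, with the matched 10 bases in capitals, are shown to set the immunoproteasome gene PSMB10 beside constitutive genes; the match of PSMB8 begins 4 bases before the start and runs across it, and is not printed.
PSMB10, chr16:67936852-67936881, minus strand: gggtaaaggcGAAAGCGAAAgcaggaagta
PSMB4, chr1:151399495-151399524, plus strand: tcgtctacagGAAAAAGAAAgaaatgacac
PSMA4, chr15:78540155-78540184, plus strand: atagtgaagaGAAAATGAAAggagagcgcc
These are letter matches only. The paired log2 fold changes of the 6 genes with a printed TGACNNNGC match were 0.09 (PSMA4), -0.05 (PSMB3), 0.07 (PSMB9), 0.02 (PSMC5), 0.01 (PSMD3) and 0.05 (PSMD12), all uncalled.

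Levels per length differed widely among the members. In TPM (counts per union exon length, scaled to the same total in each library), PSMA7 was highest, at 332, 371 and 347 TPM in KD and 330, 354 and 376 in NC. PSMB7 followed at 217 to 266 TPM over the 6 libraries, PSMB1 at 209 to 232 and PSMB4 at 199 to 228, ranges that overlap, so the order of these 3 is not resolved. Further down, PSMD2 lay at 95.4 to 122 TPM, PSMD1 at 96.5 to 111 and PSMA3 at 95.8 to 116, again overlapping. At the low end stood PSMA1 at 20.1 to 32.9 TPM, PSMA6 at 3.87 to 5.58 and PSMA2 at 1.41 to 1.73. PSMA2 had the lowest level of all, with 2.67, 3.49 and 3.04 CPM in KD and 2.35, 3.21 and 2.79 in NC.

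The lowest members share a feature of the annotation. In GENCODE 29, 4 of 34 members have a principal transcript whose exons overlap another gene on the same strand: PSMA6 over 81.0% of its length (with AL121594.1), PSMA1 over 53.2% (AC018523.2), PSMA2 over 52.5% (AC010132.3) and PSMB10 over 45.3% (AC040162.1). These members held ranks 33, 32, 34 and 26 of 34 by TPM, and 33, 32, 34 and 29 with principal transcript lengths. The overlapping genes themselves had mean counts of 1.33, 0.00, 0.667 and 118. How reads that fall on 2 genes were counted is not given in the sources used here; 2.58% to 5.94% of records were set aside as ambiguous in each library. The part of this overlap in the low levels was not tested. The levels of PSMA1, PSMA2, PSMA6 and PSMB10 are therefore uncertain relative to other members, including the PSMB10/PSMB7 ratio. The annotated overlap is the same for every library, but the share of ambiguous records was not. It was 2.63% (KD) and 2.58% (NC) in the replicate 1 libraries and 3.61% to 5.94% in the others. The part of this in differences between libraries was not tested.

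**Figure D4:**
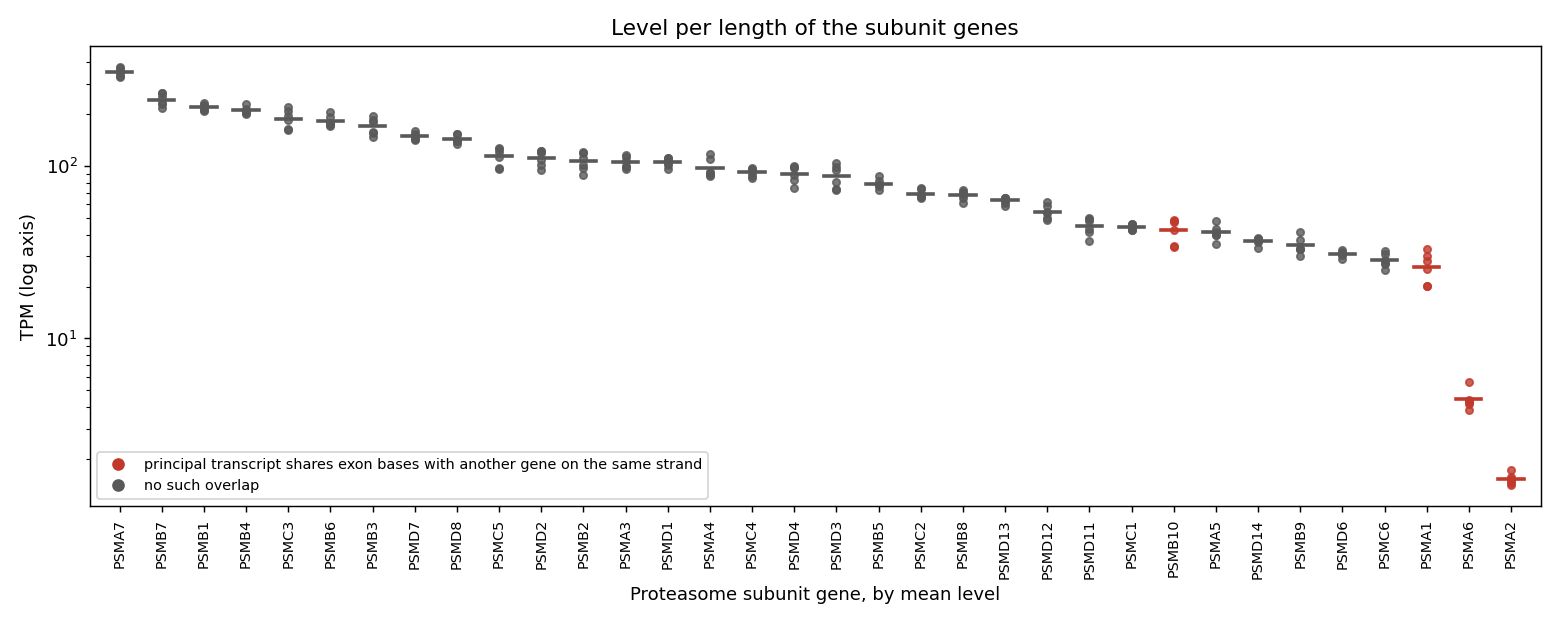
Level per length in TPM (log axis) of the 34 members, ordered by mean; points are the 6 libraries and bars their mean. Members whose principal transcript overlaps another gene on the same strand are in red: PSMA1, PSMA6 and PSMA2 are the 3 lowest, at means of 26.1, 4.44 and 1.53 TPM, and PSMB10 is at 42.5 TPM.

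In CPM with the TMM factors the proteasome genes differed more between replicate 1 and the other libraries than between the groups. The 34 members summed to 3323, 4362 and 4234 CPM in KD replicates 1 to 3 and 3267, 4316 and 4081 in NC. Both replicate 1 libraries lay below the other 4 for 30 of 34 members (all but PSMA3, PSMA4, PSMA5 and PSMC6), against 33.5% of all genes tested, and above them for 0 of 34, against 29.0%. The mean of the replicate 1 libraries divided by that of the other 4 had a median of 0.776 over the members and 0.977 over all genes tested. It was lowest for PSMA1 (0.565), PSMB10 (0.591) and PSMD3 (0.630) and highest for PSMA4 (1.03). By role the median ran from 0.678 for the base subunits other than ATPases to 0.827 for the lid.

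This pattern depends on the scale. In CPM without the TMM factors the replicate 1 libraries lay below the other 4 for 17 of 34 members, against 13.1% of all genes tested. In TPM the replicate 1 libraries lay below the other 4 for 12 of 34 members, against 8.54% of genes with a length, and above them for 7 of 34, against 48.5%. The mean TPM over the members was 95.7, 108 and 97.3 in KD replicates 1 to 3 and 97.8, 100 and 108 in NC. On that scale the replicate 1 libraries did not separate from the other 4. PSMA1, PSMA7, PSMB2, PSMB3, PSMB7, PSMB10, PSMC3, PSMC5, PSMD2, PSMD3, PSMD4 and PSMD11 were low on all 3 scales, and PSMA3, PSMA4, PSMA5, PSMB5, PSMC6, PSMD6 and PSMD12 were above in TPM. The replicate 1 libraries are those with 48.6% and 50.03% of records assigned to no counted feature. The part of that in these differences was not tested. Dividing by the summed member counts left ratios from 0.727 (PSMA1) to 1.32 (PSMA4), so the composition of the set also differed in replicate 1.

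**Figure D5:**
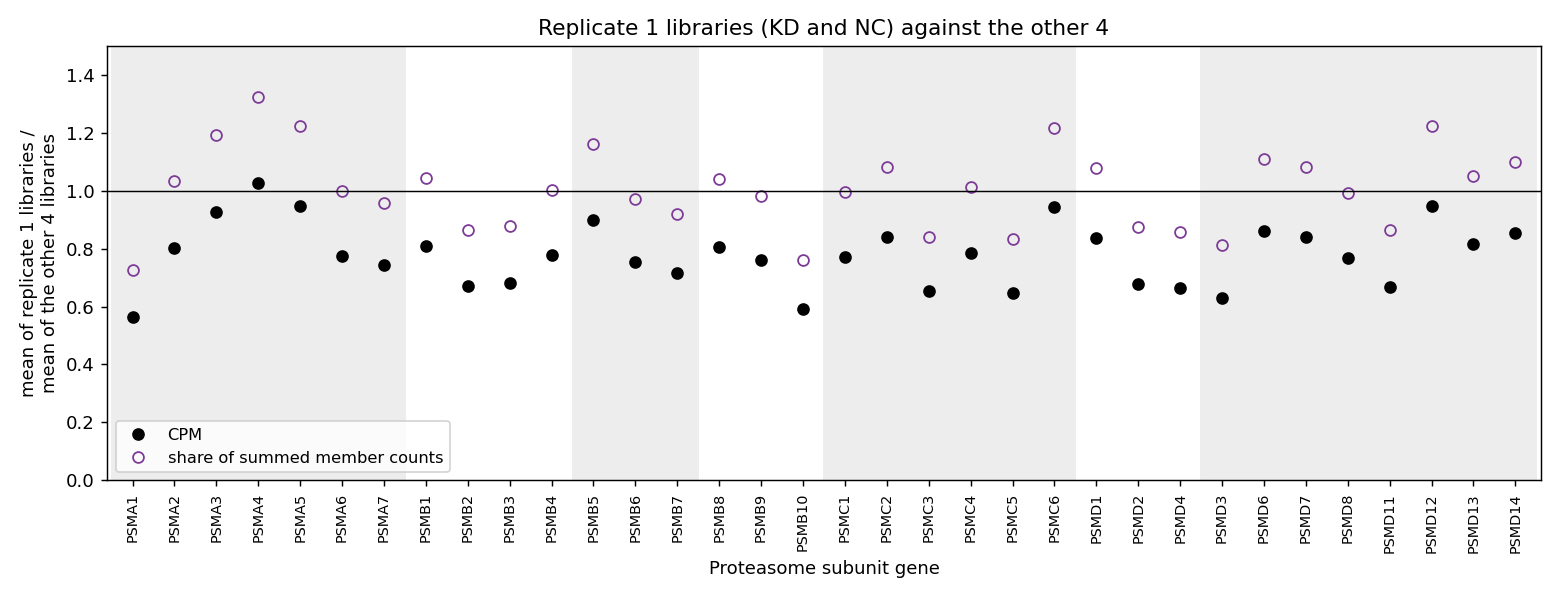
Mean of the replicate 1 libraries (KD and NC) divided by the mean of the other 4 libraries for each proteasome subunit gene (vertical axis from 0, no unit). On the CPM scale (filled) most members lie below 1, with a median of 0.776, and as shares of the summed member counts (open) they scatter around 1, from 0.727 for PSMA1 to 1.32 for PSMA4.

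Related genes of the pathway gave 0 calls as well, with and without the block, against the same 0% and 0.171% of all genes. Among 25 assembly chaperones, activators and associated factors the paired median was 0.02. PSME1, a subunit of the interferon-inducible activator cap, had 302, 314 and 345 CPM in KD and 285, 285 and 296 in NC. Every KD library of PSME1 lay above every NC library, as was so for 1.48% of all genes tested. Its paired change was 0.15 (SE 0.05, edgeR quasi-likelihood adjusted p 0.560), and it was named for its small p in this list. PSMG4, an assembly chaperone of the alpha ring, stood at 0.19 (edgeR quasi-likelihood adjusted p 0.899). Of the 18 genes listed for the transcriptional control of proteasome genes 16 were tested, with a median of -0.00. NFE2L1, named after its values were seen, is the factor that raises proteasome genes when the proteasome is inhibited; it had 92.4, 143 and 132 CPM in KD and 89.9, 138 and 129 in NC, a paired interval of -0.06 to 0.14. MAFF, a small MAF partner of such factors, stood at 0.62 on 21 to 108 reads a library (edgeR quasi-likelihood adjusted p 0.898) and NQO1, a target of NFE2L2, at 0.10.

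The interferon-inducible antigen processing genes, 17 of 17 tested, had a paired median of 0.04. HLA-C, a class I presenting molecule, had 254, 304 and 301 CPM in KD and 222, 277 and 271 in NC, a paired change of 0.16 (SE 0.04, edgeR quasi-likelihood adjusted p 0.415), and HLA-B stood at 0.14 (adjusted p 0.534 by the same test). TAP1, a peptide transporter subunit likewise named after its values were seen, had 18.2, 14.4 and 17.3 CPM in KD and 18.6, 13.5 and 15.5 in NC, and unlike PSMB9 it was not lower in the replicate 1 libraries. The 20 ubiquitin and conjugation genes had a paired median of 0.02. NEDD8, a ubiquitin-like modifier, stood at 0.19 (edgeR quasi-likelihood adjusted p 0.999), of which 0.50 was the difference within replicate 1, 0.05 within replicate 2 and 0.11 within replicate 3, and the ubiquitin-conjugating enzyme UBE2D3 at 0.07.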

How the data were processed

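Total RNA of 3 KD and 3 NC SEM libraries was sequenced, grouped and numbered by sample title. Each deposited file holds raw read counts per Ensembl gene. The submitters' processing notes name hg38 and the tools STAR 2.7.10a, HTSeq 0.11.1, FastQC 0.11.8 and DESeq2; the annotation release, strand setting and handling of shared reads were not given in the sources used here. The 5 summary lines stayed out of library sizes. Symbols were matched by identifier, keeping the identifier with the highest mean count; positions, lengths and overlaps come from GENCODE 29 (GRCh38), which may differ from the annotation counted.

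The fit was edgeR 4.0.16 in R 4.3.3 (filterByExpr, TMM, robust quasi-likelihood) on 16929 genes, with Benjamini-Hochberg adjustment and a threshold of 0.05. It was also run on simulated data that had no replicate effect and less spread than the fit without the block found here. That run therefore does not show which changes the fit without the block can detect in these libraries. Differences within a number are between log2 CPM with a prior count of 2. Deviations from group means correlated at 0.89, 0.62 and 0.61 between KD and NC libraries 1, 2 and 3, each over the limit of 0.1, so the paired fit is printed; libraries of unlike number correlated at up to 0.59, and the labels state no pairing, so it rests mainly on replicate 1. The series calls the replicates independent without saying whether they are separate cultures, so p-values measure the spread between these libraries. No pair of replicates agreed within counting error (chi-square divided by its degrees of freedom, 20.2 to 82.0). DESeq2 1.42.0, limma-voom (limma 3.58.1), other size factors, no filter and left-out libraries were alternatives. Values in every library are given, by rule, for the 6 catalytic members, the highest and lowest per length, the 4 members with the smallest p in each direction in either fit and the largest difference within a number; of each related list the 2 genes with the smallest p in the paired fit are named. PSMD14 and other genes with values were chosen after these were seen. Members and lists were chosen with earlier results of these data known.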

Additional observations from a re-analysis of the deposited data

How the results depend on the processing

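The count of called members was 0 and that of called related genes 0 under all 16 alternatives run. These include the replicate block, RLE size factors, DESeq2, limma-voom, no filter on low counts and each library or replicate number left out. Over all genes tested they called few as well, from 0 to 119 of 29982 (with the block, without replicate 2). Of the alternatives 2, both replicate 1 libraries left out and the block without a filter, were chosen after seeing the data. So was the principal transcript length. The median log2 fold change of the members (0.01) moved only when a library was left out without the block, with a range from -0.082 to 0.14 over the 6 libraries (lowest without KD replicate 2, highest without KD replicate 1). In these runs 10 to 15 of 34 members changed sign. The median over all genes tested moved too, from -0.105 without NC replicate 2 to 0.108 without KD replicate 2. Relative to it the member median ran from -0.191 without KD replicate 2 to 0.218 without NC replicate 2. The remaining libraries are then unbalanced in replicate number, and the number of genes tested also changed (17195 to 31605). The part of either was not tested. With the block and a replicate number left out the member median stayed at 0.01 to 0.02. The replicate block changed no call of the members, and gave the catalytic ratio differences of -0.08, 0.07 and -0.06 with exact sign-flip permutation p of 0.25, 0.75 and 0.50, where 0.25 is the smallest possible. With longest transcripts 29 of 34 members stayed within 5 ranks of their place per length, and 25 with principal transcripts; PSMA7 stayed highest, at 476 TPM with longest transcripts. Depth limits PSMA2 and PSMA6 most.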

Other observations

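Copies of proteasome genes named as pseudogenes took few reads. There were 33 such copies of 14 members, with 0.661% of the reads of these parents, and 2 passed the filter on low counts. PSMC1P1, named for the ATPase gene PSMC1, had 4.20, 3.06 and 3.56 CPM in KD replicates 1 to 3 and 3.79, 3.30 and 2.66 in NC, without separation of the groups. PSMA6P1, named for PSMA6, had 4.58, 1.92 and 2.10 CPM in KD and 1.81, 1.35 and 1.75 in NC. Every KD library of PSMA6P1 lay above every NC library, as was so for 1.48% of all genes tested. Its paired log2 fold change was 0.72 (edgeR quasi-likelihood adjusted p 0.833), while PSMA6 itself stood at -0.16. Records that aligned to several places, 4.70% to 31.5% of a library, were set aside, and reads alike in both copies can be among them. Both values are therefore uncertain, and the part of this in either was not tested.

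The tissue-restricted subunits were nearly absent. PSMA8, the alpha subunit of the testis, had 16, 2 and 2 reads in KD and 3, 0 and 0 in NC, and PSMB11, the beta subunit of the thymus, had 11, 1 and 0 in KD and 20, 0 and 0 in NC. Most of the reads of both lay in the replicate 1 libraries, in which 48.6% and 50.03% of records were assigned to no counted feature. Neither passed the filter. Of the 7 further proteasome genes listed 5 were tested and 0 were called in either fit. These 5 are also among the 25 assembly chaperones, activators and associated factors above, so they are no separate result. PSMD5 and SEM1, with the smallest p of the 5, stood at paired log2 fold changes of -0.11 and 0.07.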
